A study of Mus musculus with 8 samples.

Results

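The 40 genes described here encode chaperones and other folding factors of the endoplasmic reticulum (ER), the machinery that brings proteins into it and degrades those that misfold, and the sensors of the unfolded protein response. They were taken by name from the 19330 genes of the count table. All 40 are listed there, and all passed the filter on low counts that left 16434 genes for testing. Transcripts were sequenced (RNA-seq) from Tregs, the regulatory CD4+ T cells that restrain immune responses, which had been grown in vitro out of naive CD4+ T cells of B6 spleen. The 4 oxPAPC libraries come from cells polarized toward Tregs for 3 days with oxPAPC, a mixture of oxidized phospholipids made from the phospholipid PAPC. The 4 control libraries come from cells polarized for the same 3 days without oxPAPC. The dose and any vehicle are not given in the sources used here. The comparison asks how oxPAPC changes gene expression during Treg differentiation. No label ties the replicates to separate mice or cultures, and the p-values rest on the spread among these libraries, which may be technical.

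Proteins that enter the ER are folded by the chaperone BiP (encoded by Hspa5) and its helpers, by lectins that hold sugar-bearing proteins, and by enzymes that form disulfide bonds. When unfolded proteins build up, the sensors IRE1, PERK and ATF6 raise the transcription of chaperone genes, slow translation and promote the degradation of misfolded proteins, which together form the unfolded protein response. Lymphocytes that begin to secrete cytokines or antibodies are known for enlarging this machinery. IRE1 acts by splicing the Xbp1 transcript, PERK by phosphorylating a translation factor and ATF6 by being cut from the ER membrane. Gene counts measure none of these steps, so only the amounts of the transcripts are described.

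Those of the 40 genes that rose in oxPAPC libraries were all folding genes. With p-values from the quasi-likelihood test of edgeR, adjusted by Benjamini-Hochberg over all 16434 genes, 9 of the 40 genes were higher in the oxPAPC libraries, against a background of 6.75% of all tested genes, and 3 were lower, against a background of 6.52%. Together 30.0% of the 40 genes passed at an adjusted p under 0.05, compared with 13.3% of all tested genes. The median log2 fold change of the 40 genes was 0.20, and that of all tested genes was -0.01. All 9 genes that rose belong to the 19 chaperones, co-chaperones, disulfide enzymes and proline isomerases, whose median log2 fold change was 0.52. None of these 19 fell, either at an unadjusted p under 0.05 or by DESeq2 or limma-voom. Among the other 21 genes none rose by edgeR, DESeq2 or limma-voom, although 3 were higher at an unadjusted p under 0.05, and 3 fell by edgeR. The roles that define these sets were assigned with earlier results of these data known. Whether the 2 sets of genes differ in their shares was not tested. The groups did not overlap for 13 of the 40 genes (32.5%), compared with 19.4% of all tested genes. The authors' deposited table has adjusted p under 0.05 for 12 of the 40 genes, of which 10 were higher and 2 lower, where 7.88% and 6.55% of its genes with an adjusted p were higher and lower.

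These counts depended on single libraries. Without oxPAPC replicate 4 the test called 5 of the 40 genes higher, and without control replicate 1 it called 4. Of the 3 lower genes none was called without oxPAPC replicate 1, 2 or 4 or control replicate 2, 1 was called without oxPAPC replicate 3 or control replicate 1 or 4, and 2 were called without control replicate 3. Scaling by library size alone, with which the median over all genes became 0.12 on the log2 scale, called 8 of the 40 genes higher and 0 lower. Over all genes the test called 1110 higher and 1072 lower, and library size scaling called 1154 higher and 458 lower. Without control replicate 2 the test called 1390 genes, against 2182 with all libraries. Sdf2l1, Calr, Hspa5 and Manf passed under all 17 alternatives, which are the 4 of the 12 called genes for which this held.

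The library totals were 14017583 to 20554614 counts for oxPAPC and 16416538 to 21619731 counts for control, and the 40 genes had between 90 counts (Dnajb9) and 12043 counts (Calr) in a library. The noncoding gene Gm26917 took 9.35% to 19.4% of the counts of oxPAPC libraries and 8.59% to 29.1% of those of control libraries. The Treg gene Foxp3 had 88.5 to 211 CPM in oxPAPC libraries and 117 to 200 CPM in control libraries, where CPM is the count relative to library size (edgeR's cpm) after scaling by the trimmed mean of M values (TMM). Of 6 Treg markers none passed by edgeR or limma-voom, and by DESeq2 and at an unadjusted p under 0.05 2 were higher. In bulk RNA, fewer cells of a type and less RNA per cell cannot be told apart.

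Promoters of many of these genes are known to carry the ER stress response element (ERSE), a CCAAT box and the sequence CCACG at a fixed spacing, which is bound by the factor NF-Y together with ATF6 or XBP1. A second form, ERSE-II, has the same parts closer together, with the first inverted. RefSeq promoters of GRCm38.p6, from 250 bases before to 50 bases after the start, were searched on both strands. Of the 40 genes 32 matched an entry by symbol, and Manf, Hyou1, Atf6, Sec61a1, Ssr2, Derl1, Sec11c and Ostc did not. The exact ERSE, CCAAT and CCACG with 9 bases of any kind between them, was found in 8 of the 32 (25.0%) and in 37 of 27025 genes with a promoter (0.137%). Because many of the 40 genes are known to carry this element, the higher share among them is no finding of these data. ERSE-II, ATTGG and CCACG with 1 base of any kind between them, was found in 2 of the 32 and in 12 of the 27025 genes (0.0444%). The element UPRE, TGACGTGG, was found in 1 of the 32, Txndc5, and in 0.714% of genes. Each ERSE match contains the shorter words CCAAT and CCACG, which alone occur in 41.1% and 35.5% of genes, and each ERSE-II match contains both as well, the CCAAT reading on the opposite strand.

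The promoters of 4 genes that rose and hold an exact ERSE are shown in full, with the element in capitals, because they let the match be compared with the fold change. They lie at chr2:34771840-34772139 on the plus strand (Hspa5), chr8:84846882-84847181 on the minus strand (Calr), chr15:88819396-88819695 on the plus strand (Creld2) and chr12:17266339-17266638 on the plus strand (Pdia6). Counted from the RefSeq start base as 0, the element spans positions -65 to -47 in Hspa5, -162 to -144 in Calr, -126 to -108 in Creld2 and -98 to -80 in Pdia6. In Calr and Creld2 it reads on the opposite strand. The annotations do not place every start alike. The RefSeq start lies 120 bases inside the GENCODE gene for Hspa5, 44 for Pdia6 and 3 for Calr, and the starts are identical for Creld2, so that the element of Hspa5 lies within the GENCODE gene span.
Hspa5: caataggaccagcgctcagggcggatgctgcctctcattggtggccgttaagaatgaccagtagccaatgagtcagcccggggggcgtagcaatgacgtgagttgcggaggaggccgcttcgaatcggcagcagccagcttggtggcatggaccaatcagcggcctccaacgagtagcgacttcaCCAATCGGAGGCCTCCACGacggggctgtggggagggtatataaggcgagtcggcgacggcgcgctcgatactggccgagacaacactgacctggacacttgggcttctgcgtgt
Calr: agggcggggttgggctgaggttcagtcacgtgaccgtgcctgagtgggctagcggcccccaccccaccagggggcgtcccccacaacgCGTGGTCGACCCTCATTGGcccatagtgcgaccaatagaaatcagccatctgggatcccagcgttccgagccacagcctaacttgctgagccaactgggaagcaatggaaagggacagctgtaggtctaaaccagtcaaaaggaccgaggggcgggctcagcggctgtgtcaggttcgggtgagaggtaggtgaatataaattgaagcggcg
Creld2: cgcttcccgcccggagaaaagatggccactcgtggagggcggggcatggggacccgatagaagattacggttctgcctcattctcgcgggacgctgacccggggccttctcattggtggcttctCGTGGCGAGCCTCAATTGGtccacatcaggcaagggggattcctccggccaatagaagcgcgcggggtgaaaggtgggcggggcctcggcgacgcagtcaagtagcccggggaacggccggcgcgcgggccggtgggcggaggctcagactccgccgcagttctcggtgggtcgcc
Pdia6: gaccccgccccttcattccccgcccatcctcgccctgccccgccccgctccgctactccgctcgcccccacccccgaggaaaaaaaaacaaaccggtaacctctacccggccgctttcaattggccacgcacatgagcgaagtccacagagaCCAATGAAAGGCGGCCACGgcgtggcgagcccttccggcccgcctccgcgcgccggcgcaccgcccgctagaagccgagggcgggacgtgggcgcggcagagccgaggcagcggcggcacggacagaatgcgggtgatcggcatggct

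An exact ERSE was also found in 4 genes that did not pass the test, Hsp90b1, Canx, Dnajc3 and Syvn1, each shown here with 10 bases on either side and the element in capitals. Hsp90b1 has 2 matches, and the one farther from the start is shown (chr10:86705628-86705666, minus strand). The others lie at chr11:50325790-50325828 on the minus strand (Canx), chr14:118937817-118937855 on the plus strand (Dnajc3) and chr19:6046522-6046560 on the plus strand (Syvn1). ERSE-II was found in Dnajb11, which rose, at chr16:22857842-22857872 on the plus strand, and in Herpud1, which fell, at chr8:94386367-94386397 on the plus strand.
Hsp90b1: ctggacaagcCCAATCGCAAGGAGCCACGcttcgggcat
Canx: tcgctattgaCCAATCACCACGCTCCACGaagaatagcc
Dnajc3: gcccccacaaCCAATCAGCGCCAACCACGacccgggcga
Syvn1: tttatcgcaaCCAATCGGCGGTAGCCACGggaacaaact
Dnajb11: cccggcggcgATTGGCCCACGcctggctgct
Herpud1: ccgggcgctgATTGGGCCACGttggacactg

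Sdf2l1, the gene with the highest fold change of the 40, has no exact ERSE or ERSE-II in its window at chr16:17132334-17132633 on the minus strand. The window, with the separate words in capitals, holds 4 matches of CCAAT and 3 of CCACG, counting both strands. The absence of an exact match says only that these letters are not in this window.
Sdf2l1: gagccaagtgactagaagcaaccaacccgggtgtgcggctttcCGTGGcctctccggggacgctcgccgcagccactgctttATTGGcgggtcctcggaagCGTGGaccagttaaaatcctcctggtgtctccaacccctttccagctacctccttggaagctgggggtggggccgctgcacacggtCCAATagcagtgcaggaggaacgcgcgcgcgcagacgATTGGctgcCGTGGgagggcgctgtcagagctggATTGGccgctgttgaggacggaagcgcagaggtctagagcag

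Set beside the test, 4 of the 8 genes of the 40 with an exact ERSE rose and the other 4 did not pass, with a median log2 fold change of 0.61. Of 22 with a promoter but neither element, 3 rose and 2 fell, with a median of 0.18. The 8 genes with ERSE are all folding genes except Syvn1. The 22 also include genes of entry and degradation and sensors, among which none rose. The sets thus differ in role as well as in the element, and their difference was not tested. Outside the 40 genes 9 tested genes have an exact ERSE, and 2 of these (Acacb and Pan2) fell and the other 7 did not pass, with a median of -0.03. Outside the 40 genes 7 tested genes have ERSE-II, and 1 of these (Rcl1) rose. The shares over all tested genes were 6.75% higher and 6.52% lower.

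**Figure D1:**
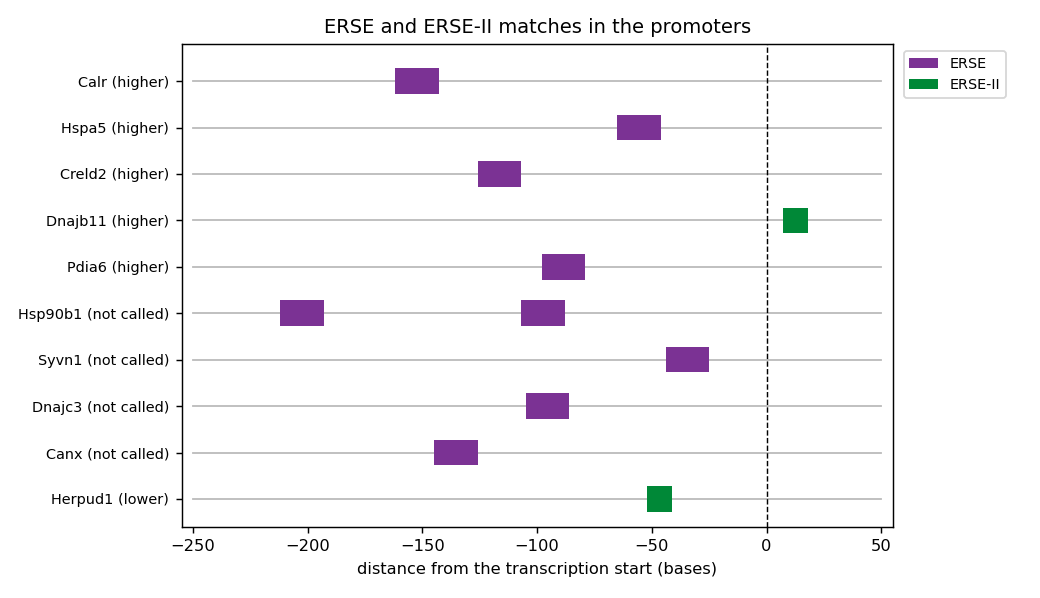
Position of exact ERSE and ERSE-II matches in the promoters of 10 genes, drawn by distance from the transcription start in bases, with the call of each gene in brackets and the gene with the highest fold change on top. ERSE occurs in 4 genes that were higher and 4 that were not called, and ERSE-II in 1 higher gene (Dnajb11) and 1 lower gene (Herpud1).

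The gene of BiP rose, and so did those of its partners Sdf2l1, Manf and Dnajb11. Hspa5 spans positions 34771970 to 34777547 of chromosome 2 (GRCm38). It had 323, 268, 374 and 341 CPM in oxPAPC libraries and 169, 177, 160 and 179 CPM in control libraries. Every oxPAPC library lay above every control library, and the lowest, oxPAPC replicate 2, was still far above the control range. Its log2 fold change was 0.93 ± 0.15 (SE, adjusted p = 0.00149 by edgeR), a 1.91-fold difference, with values of 0.86 to 1.07 over the alternatives. Sdf2l1, a component of the ER chaperone complex that binds BiP and its co-chaperones, lies on chromosome 16 between positions 17130138 and 17132383. It had 58.6, 36.5, 55.8 and 51.2 CPM in oxPAPC libraries and 22.1, 16.2, 14.4 and 22.4 CPM in control libraries. The groups did not overlap, and the log2 fold change was 1.43 ± 0.19 (SE, adjusted p = 0.000283 by edgeR), a 2.69-fold difference.

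Manf, a small stress-induced ER protein that binds BiP, had 96.6, 88.5, 83.0 and 96.0 CPM in oxPAPC libraries and 58.7, 49.7, 48.8 and 50.4 CPM in control libraries. The groups were separate, and control replicate 1 stood above the other control libraries. Its log2 fold change was 0.81 ± 0.13 (SE, adjusted p = 0.00113 by edgeR). Exons of Manf overlap exons of 3 other genes of the table, Dcaf1, Rbm15b and 4930524O07Rik, and the sources used here do not say if counting used strand. Of these, 4930524O07Rik on the opposite strand also rose, with a log2 fold change of 1.36 ± 0.32 (SE, adjusted p = 0.0126 by edgeR). Its level was low, with means of 4.84 CPM in oxPAPC and 1.90 CPM in control libraries, beside 91.0 and 51.9 CPM for Manf. Rbm15b on the same strand and Dcaf1 had log2 fold changes of 0.45 and 0.18 (edgeR adjusted p of 0.0761 and 0.517). Reads of the genes cannot be told apart where they overlap. Other called genes that share exon bases with a neighbour are Pdia3 (Catsper2, 18 bases), Pdia6 (Atp6v1c2, 50 bases) and Eif2ak3 (Gm43292, 221 bases), each on the opposite strand. Dnajb11, a co-chaperone that passes clients to BiP, had 34.5, 27.4, 47.3 and 45.4 CPM in oxPAPC libraries and 22.5, 24.3, 21.7 and 27.2 CPM in control libraries. The highest control library, replicate 4, lay just under the lowest oxPAPC library, replicate 2. The log2 fold change was 0.69 ± 0.17 (SE, adjusted p = 0.0168 by edgeR), and the call was lost without oxPAPC replicate 4 or control replicate 1, where the adjusted p reached 0.0569.

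The other BiP helpers among the 40 genes, Dnajb9, Dnajc3 and Hyou1, and the chaperone genes Hsp90b1 and Mesd did not pass. Dnajb9 and Dnajc3, both co-chaperones of BiP, had log2 fold changes of -0.09 and -0.02 (edgeR adjusted p of 0.844 and 0.947), and both turned positive with library size scaling. Hsp90b1, the ER member of the HSP90 family, had 104, 81.1, 145 and 158 CPM in oxPAPC libraries and 78.4, 70.2, 94.8 and 86.6 CPM in control libraries. Its groups overlapped through oxPAPC replicate 2, and its log2 fold change was 0.56 ± 0.20 (SE, adjusted p = 0.0761 by edgeR). It passed without oxPAPC replicate 2 (0.0216), with DESeq2 (0.0415) and in the authors' deposited table (0.0445). Hyou1, an exchange factor of BiP, had 140, 107, 199 and 134 CPM in oxPAPC libraries and 97.2, 122, 71.2 and 126 CPM in control libraries. Its groups overlapped as well, and its log2 fold change was 0.48 ± 0.21 (SE, adjusted p = 0.164 by edgeR), which passed when the fit was offset by GC content and length (0.0439). Mesd, a chaperone of receptors of the LDL receptor family, had -0.03 (edgeR adjusted p = 0.926), positive with library size scaling.

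Of the 2 lectin chaperones 1 rose. Calr, which encodes calreticulin, the soluble lectin of the ER lumen, lies on chromosome 8 between positions 84841850 and 84846934. It had 394, 326, 531 and 448 CPM in oxPAPC libraries and 192, 178, 167 and 215 CPM in control libraries. Every oxPAPC library was above every control library, and the log2 fold change was 1.18 ± 0.18 (SE, adjusted p = 0.000837 by edgeR), a 2.26-fold difference. Canx, which encodes its membrane-bound relative calnexin, had 266, 236, 412 and 368 CPM in oxPAPC libraries and 286, 314, 341 and 385 CPM in control libraries. Its groups overlapped throughout, with a log2 fold change of -0.05 ± 0.20 (SE, adjusted p = 0.906 by edgeR) that turned positive with library size scaling. The difference between the 2 genes was not tested. Per kilobase of annotated exon, Calr had 148 CPM in oxPAPC and 65.2 CPM in control libraries, and Canx had 68.3 CPM in oxPAPC and 70.7 CPM in control libraries. On that scale Calr ranked 1 among the 40 genes in oxPAPC and 3 in control libraries, while Sec61b, a subunit of the translocon, ranked 2 in oxPAPC and 1 in control libraries.

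Among 6 genes counted with the disulfide enzymes, 3 rose. Pdia6 had 123, 90.0, 147 and 131 CPM in oxPAPC libraries and 76.8, 77.7, 68.0 and 89.7 CPM in control libraries. The lowest oxPAPC library, replicate 2, was level with the highest control library, replicate 4, and the log2 fold change was 0.65 ± 0.17 (SE, adjusted p = 0.0182 by edgeR). The call was lost without oxPAPC replicate 4 or control replicate 1 or 2, where the adjusted p reached 0.0538. Pdia3, the disulfide isomerase that works with calreticulin and calnexin, had 243, 228, 278 and 253 CPM in oxPAPC libraries and 190, 174, 172 and 183 CPM in control libraries. The groups were separate, but the change was small, with a log2 fold change of 0.48 ± 0.14 (SE, adjusted p = 0.0378 by edgeR). It did not pass when any library other than oxPAPC replicate 2 was left out, where the adjusted p reached 0.113, or with library size scaling (0.0504). Creld2, a calcium-binding ER protein induced by stress, had 24.3, 20.1, 32.6 and 24.5 CPM in oxPAPC libraries and 12.4, 17.9, 10.6 and 17.8 CPM in control libraries. Its groups did not overlap, and its log2 fold change was 0.80 ± 0.20 (SE, adjusted p = 0.0165 by edgeR), a call lost without control replicate 1 (adjusted p = 0.0570).

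P4hb, which encodes protein disulfide isomerase itself, did not pass, with a log2 fold change of 0.27 ± 0.14 (SE, adjusted p = 0.251 by edgeR). It had 224, 181, 224 and 225 CPM in oxPAPC libraries and 185, 176, 166 and 183 CPM in control libraries, so that only oxPAPC replicate 2 fell within the control range. Pdia4 had 52.6 to 105 CPM in oxPAPC and 46.0 to 64.3 CPM in control libraries and passed without oxPAPC replicate 2 (edgeR adjusted p = 0.0424), but not with all libraries (0.113). Txndc5, a disulfide enzyme abundant in plasma cells, had a log2 fold change of -0.01, and its sign turned with RLE and library size scaling. Of the proline isomerases, Fkbp2 had 41.6, 33.7, 39.1 and 33.5 CPM in oxPAPC libraries and 25.0, 29.5, 15.4 and 27.6 CPM in control libraries. The groups did not overlap, and control replicate 3 was far below the other control libraries. Its log2 fold change was 0.60 ± 0.18 (SE, adjusted p = 0.0434 by edgeR), and it did not pass when any library other than control replicate 2 was left out, where the adjusted p reached 0.119. Ppib, which encodes cyclophilin B, had a log2 fold change of 0.15 ± 0.15 (SE, adjusted p = 0.572 by edgeR).

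**Figure D2:**
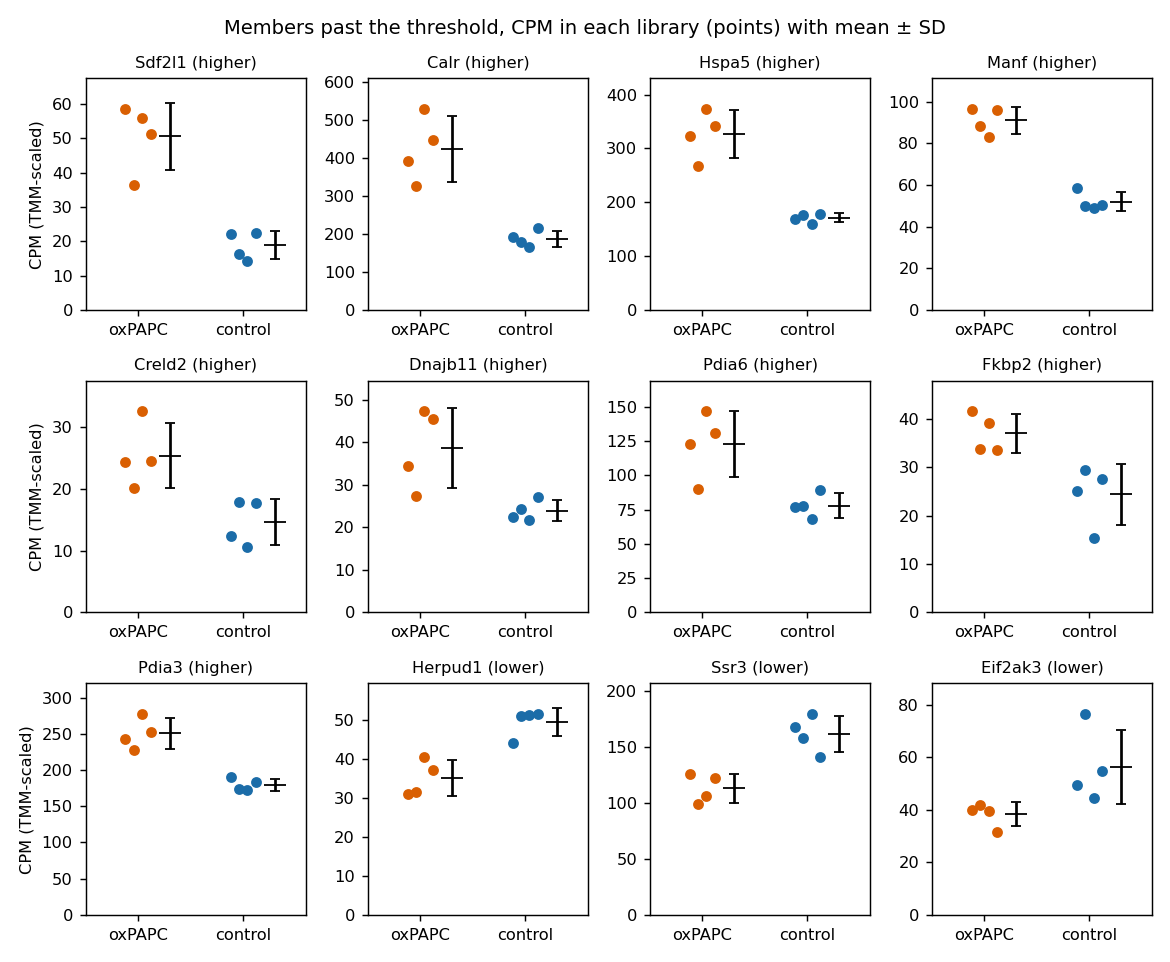
CPM after TMM scaling of the 12 genes past the threshold, with one point for each library and bars for the mean and SD of 4 libraries per group; axes start at 0. No gene overlaps between groups, and 9 genes are higher and 3 lower in oxPAPC libraries.

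The transcripts of the stress sensors did not rise with the chaperones. Xbp1, which encodes the transcription factor activated by IRE1, had 216, 186, 240 and 179 CPM in oxPAPC libraries and 167, 206, 141 and 199 CPM in control libraries. The groups overlapped, and the log2 fold change was 0.20 ± 0.17 (SE, adjusted p = 0.477 by edgeR). Atf6 had 22.1, 22.8, 24.5 and 24.1 CPM in oxPAPC libraries and 21.8, 21.6, 24.6 and 19.7 CPM in control libraries. Ern1, which encodes IRE1, had 16.2, 21.4, 19.1 and 15.4 CPM in oxPAPC libraries and 18.7, 17.7, 14.3 and 16.0 CPM in control libraries. Both overlapped, with log2 fold changes of 0.09 ± 0.13 and 0.11 ± 0.15 (SE, edgeR adjusted p of 0.690 and 0.686). Per kilobase of exon these 2 genes had the lowest levels of the 40 in both groups.

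Eif2ak3, which encodes PERK, was lower in oxPAPC libraries. It had 39.9, 42.0, 39.7 and 31.6 CPM in oxPAPC libraries and 49.3, 76.7, 44.5 and 54.8 CPM in control libraries. The groups did not overlap, but control replicate 2 stood far above the others and control replicate 3 lay close to the oxPAPC range. The log2 fold change was -0.55 ± 0.17 (SE, adjusted p = 0.0484 by edgeR). It did not pass when any library other than control replicate 3 was left out, where the adjusted p reached 0.160, nor with RLE scaling (0.0605), library size scaling (0.184), no filter (0.0554) or limma-voom (0.0576), nor without structural RNA (0.0507). The authors' deposited table, made with DESeq2, did not call Eif2ak3 either (adjusted p = 0.0533).

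Genes of ER-associated degradation, which carries misfolded proteins back to the cytosol for the proteasome, did not rise. Herpud1, a membrane component of the HRD1 ubiquitin ligase complex that is itself induced by ER stress, had 31.1, 31.5, 40.5 and 37.2 CPM in oxPAPC libraries and 44.0, 50.9, 51.2 and 51.6 CPM in control libraries. Every oxPAPC library was below every control library, and the log2 fold change was -0.49 ± 0.13 (SE, adjusted p = 0.0260 by edgeR). The call was lost without oxPAPC replicate 1, 2 or 4 or control replicate 2 or 4, where the adjusted p reached 0.0913, and with library size scaling (0.284). The other 6 genes of this group had log2 fold changes of -0.05 to 0.31 and adjusted p of at least 0.160. Among them Syvn1, the HRD1 ligase, had 31.7 to 41.7 CPM in oxPAPC and 22.7 to 34.9 CPM in control libraries, and its partner Sel1l had 48.5 to 59.2 and 49.2 to 62.2 CPM. Edem1, a lectin that targets glycoproteins for degradation, had 173 to 233 CPM in oxPAPC and 135 to 211 CPM in control libraries. Selenos, a membrane anchor of the degradation machinery, had 38.7, 29.6, 30.3 and 37.1 CPM in oxPAPC libraries and 28.3, 29.4, 26.5 and 25.7 CPM in control libraries. Its groups touched without overlapping, and its log2 fold change of 0.30 missed the threshold (adjusted p = 0.160 by edgeR).

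The 10 genes of protein entry and first processing, which thread new proteins into the ER, cut off their signal peptides and attach sugars, showed 1 change. Ssr3, a subunit of the complex associated with the translocon, had 126, 98.8, 106 and 122 CPM in oxPAPC libraries and 168, 158, 180 and 141 CPM in control libraries. The groups did not overlap, and the log2 fold change was -0.51 ± 0.15 (SE, adjusted p = 0.0328 by edgeR). It did not pass when any library other than control replicate 4 was left out, where the adjusted p reached 0.0929, or with library size scaling (0.241). Its partners Ssr1 and Ssr2 had log2 fold changes of -0.02 and 0.33 (edgeR adjusted p of 0.948 and 0.165), that of Ssr1 being positive with RLE and library size scaling. The translocon genes Sec61a1, Sec61b and Sec61g had log2 fold changes of 0.13, 0.15 and 0.19, and the signal peptidase genes Sec11c, Spcs1 and Spcs2 had 0.03, 0.26 and 0.29. Ostc, a subunit of the oligosaccharyltransferase, had a log2 fold change of 0.39 ± 0.15 (SE, adjusted p = 0.109 by edgeR) and passed without oxPAPC replicate 3 (0.0389).

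**Figure D3:**
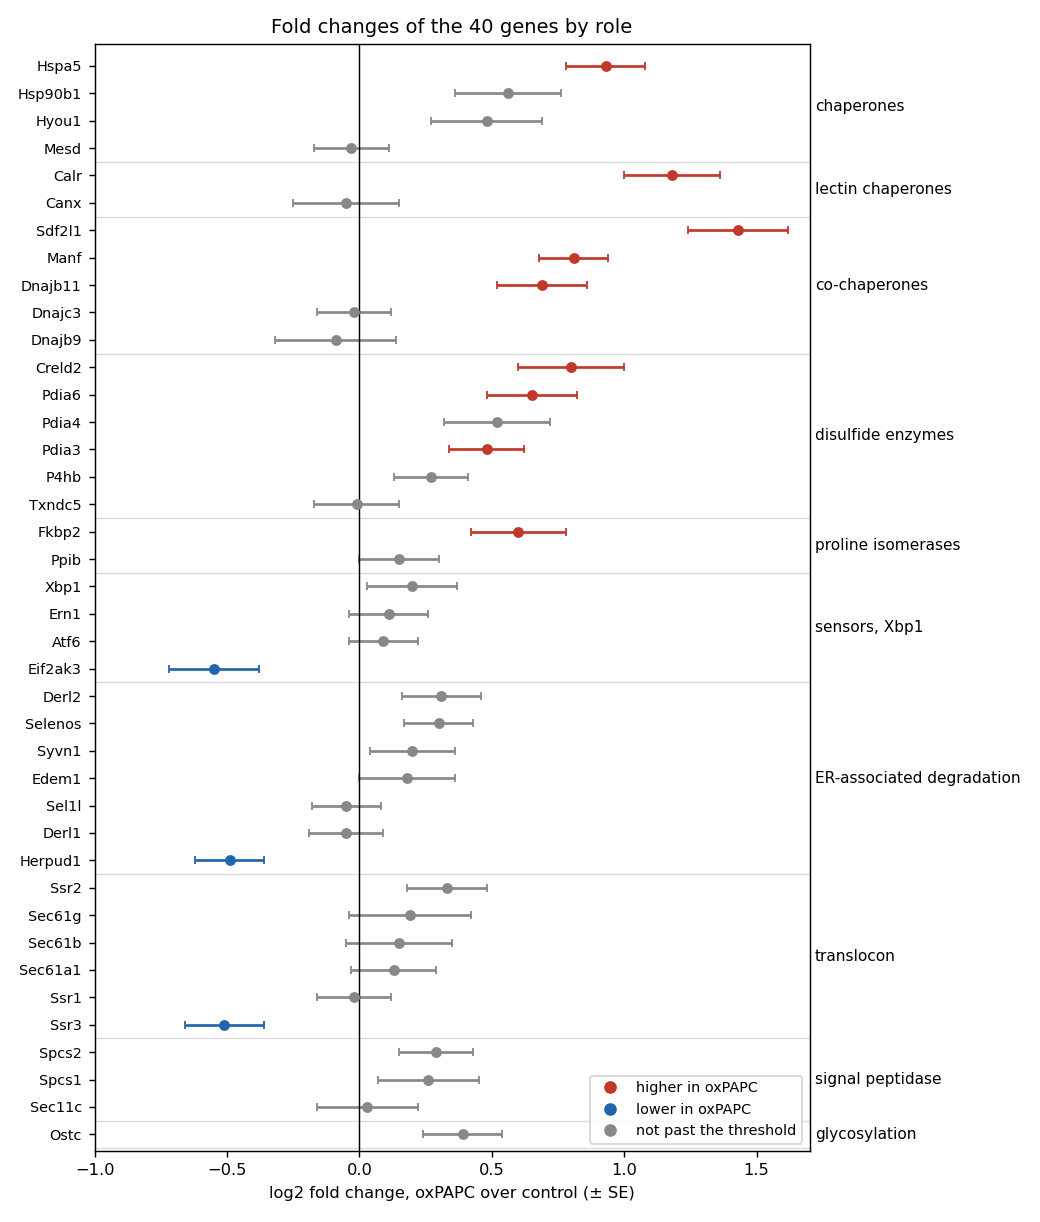
Log2 fold change of oxPAPC over control for each of the 40 genes with its standard error, grouped by role from chaperones at the top to glycosylation at the bottom. The higher genes lie among the folding factors, led by Sdf2l1 at 1.43 and Calr at 1.18, and the lower genes are Eif2ak3, Ssr3 and Herpud1.

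The libraries of a group did not move evenly. Summed over the 19 folding genes, oxPAPC libraries had 2365, 1969, 2910 and 2607 CPM and control libraries had 1683, 1700, 1595 and 1873 CPM. The sums did not overlap, and oxPAPC replicate 2 was nearest to the controls. These sums include the 9 genes that rose, which alone had means of 1368 CPM in oxPAPC and 750.6 CPM in control libraries. The means for all 19 were 2463 and 1713 CPM, so the gap in the sums largely repeats those calls. Of the 40 genes 24 had their lowest oxPAPC value in replicate 2 and 22 their highest in replicate 3, while 22 had their lowest control value in replicate 3. The share of Gm26917 was 19.4%, 16.6%, 9.51% and 9.35% in oxPAPC libraries and 19.7%, 29.1%, 8.59% and 16.0% in control libraries. It was lowest where the folding genes were highest among oxPAPC libraries, in replicates 3 and 4, and also where they were lowest among control libraries, in replicate 3. A fit without structural RNA, Gm26917 included, called 9 of the 40 genes higher and 2 lower, with a median log2 fold change of 0.207. The link between the share of Gm26917 and the folding genes was not tested. The 10 genes of entry and processing summed to 1101, 974.2, 959.6 and 1158 CPM in oxPAPC libraries and 1086, 891.1, 1012 and 935.5 CPM in control libraries, and these ranges overlapped. Within that group Sec61g was uneven among replicates, with 135, 137, 75.3 and 155 CPM in oxPAPC libraries and 131, 73.6, 139 and 95.6 CPM in control libraries. Sec11c and Spcs1 were likewise lowest in replicate 3 of the oxPAPC libraries, where most folding genes were highest.

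**Figure D4:**
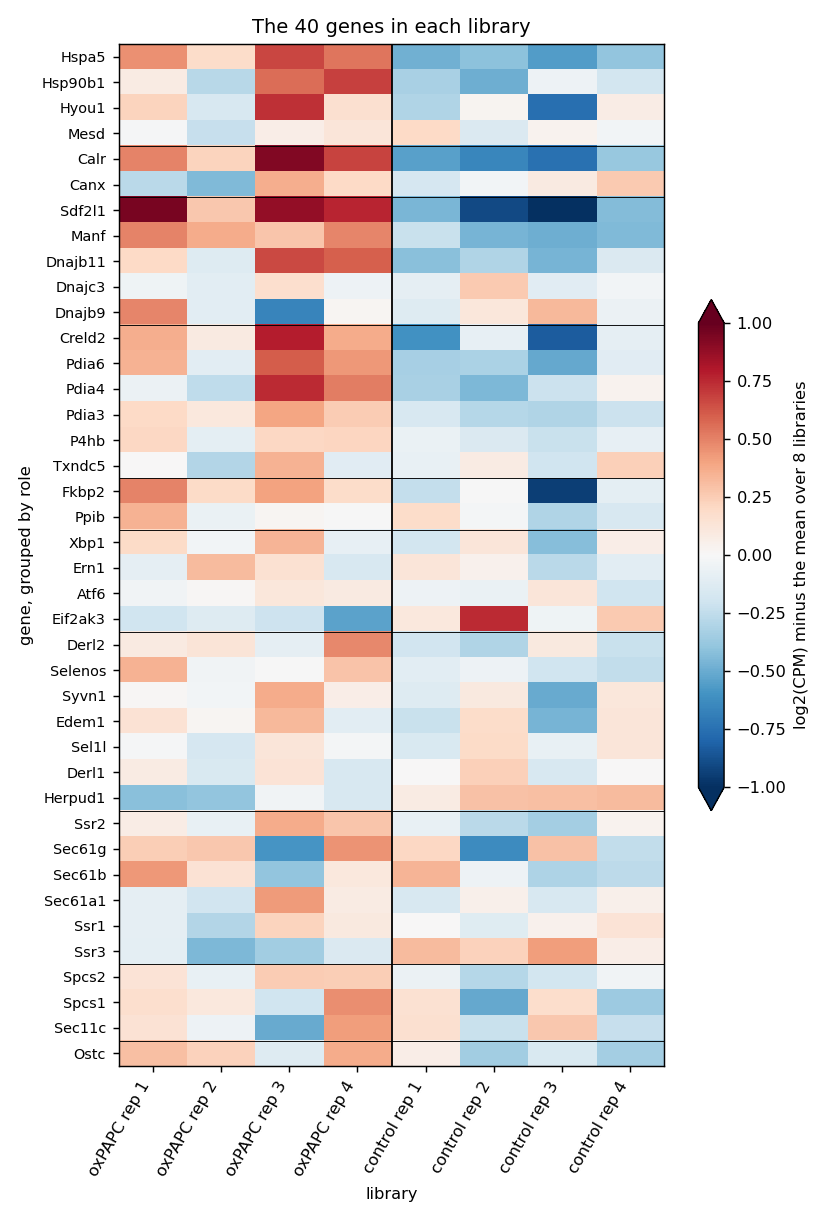
Log2 CPM of the 40 genes in each of 8 libraries minus the mean over the libraries, by gene and role, with colours limited to the range of -1 to 1. Of the 19 folding genes, which run from Hspa5 to Ppib, 11 have their highest oxPAPC value in replicate 3.

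Other genes of the secretory pathway were described by 8 lists chosen by function, which hold 158 tested genes. Of these 14 rose and 15 fell, which is 8.86% and 9.49%, with a median log2 fold change of 0.03. Among all tested genes 6.75% rose and 6.52% fell. The shares of higher genes were 7.14% for the glycoprotein folding cycle, 8.33% for further disulfide and proline genes, 4.17% for the further translocon genes and 5.88% for the partners of ATF6 and XBP1. These lie near the background, and single genes named from these lists are no result about the list. Library size scaling called 14 higher and 4 lower. Without oxPAPC replicate 4 or control replicate 2, 9 were called lower.

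Among the 8 lists the share of higher genes was highest for the attachment of sugars (35.7%). Of 14 genes of the oligosaccharyltransferase, which transfers the sugar chain to new proteins, and of the synthesis of that chain, 5 rose and 9 did not pass. Alg5, which makes a sugar donor for the chain, had 33.5 ± 5.01 CPM in oxPAPC and 20.1 ± 1.97 CPM in control libraries (SD, n = 4 each). Its log2 fold change was 0.74 ± 0.15 (SE, adjusted p = 0.00443 by edgeR). The subunit genes Ost4 and Ddost had log2 fold changes of 0.60 and 0.57 (edgeR adjusted p of 0.0124 and 0.0173), the call of Ddost being lost without oxPAPC replicate 4 or control replicate 2 (up to 0.0554). In the cycle of glycoprotein folding 1 of 14 genes rose. This was Mogs, the glucosidase that trims the first glucose, with 69.9 ± 15.0 CPM in oxPAPC and 34.6 ± 8.52 CPM in control libraries (SD, n = 4 each), a log2 difference of 1.02 ± 0.20 (SE, adjusted p = 0.00407 by edgeR). The cargo receptor gene Lman2 and the folding factor gene Erp29 had log2 fold changes of 0.46 and 0.29 (edgeR adjusted p of 0.0533 and 0.203). Lman2 passed without oxPAPC replicate 2 (0.0301), with genes kept above 5 CPM on average (0.0230), with DESeq2 (0.0206), without structural RNA (0.0480) and with the GC and length offset (0.00790).

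The oxidases that recharge the disulfide enzymes went opposite ways. Of 24 further disulfide and proline genes 2 rose and 1 fell. Ero1l, the widely expressed oxidase, had 51.8 ± 8.11 CPM in oxPAPC and 32.7 ± 4.43 CPM in control libraries (SD, n = 4 each), a log2 difference of 0.66 ± 0.15 (SE, adjusted p = 0.0109 by edgeR). Its relative Ero1lb fell, with a log2 fold change of -0.59 ± 0.16 (SE, adjusted p = 0.0266 by edgeR), a call lost without oxPAPC replicate 3 or 4 or control replicate 2 or 4 (up to 0.0887) and with library size scaling (0.167). Tmx1, a membrane-bound disulfide enzyme, had a log2 fold change of 0.52 (edgeR adjusted p = 0.0257), a call lost without oxPAPC replicate 1 or 4 or control replicate 1, 2 or 4 (up to 0.0847). Among 24 further genes of the translocon and the signal recognition particle 1 rose, Emc4 of a complex that inserts membrane proteins, with a log2 fold change of 0.77 ± 0.16 (SE, adjusted p = 0.00593 by edgeR). Get4 and Sec62 had 0.32 and -0.40 (edgeR adjusted p of 0.130 and 0.140).

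Lower genes were found among further genes of degradation and of transport out of the ER. Of 23 genes of degradation 4 fell (17.4%) and 1 rose (4.35%), against 6.52% and 6.75% of all tested genes. Ngly1, which strips sugars from retrieved proteins, had a log2 fold change of -0.61 ± 0.12 (SE, adjusted p = 0.00501 by edgeR), Trim13, a ubiquitin ligase gene, had -0.88 (0.0193), and Ubxn8 had 0.67 (0.0106). Of 25 genes of vesicle coats and retrieval 4 fell (16.0%). None rose by edgeR, DESeq2 or limma-voom, with 1 higher at an unadjusted p under 0.05. Sec23a, a coat subunit of vesicles that leave the ER, and Golgb1, a Golgi tether, had log2 fold changes of -0.72 and -0.54 (edgeR adjusted p of 0.0140 and 0.0145). Kdelr1, a receptor that returns chaperones such as BiP to the ER, had 30.8 ± 8.28 CPM in oxPAPC and 51.6 ± 9.13 CPM in control libraries (SD, n = 4 each), a log2 difference of -0.74 ± 0.19 (SE, adjusted p = 0.0190 by edgeR). The calls of Ngly1 (0.105), Trim13 (0.0897), Sec23a (0.116), Golgb1 (0.213) and Kdelr1 (0.0924) were lost with library size scaling. That of Golgb1 was also lost without oxPAPC replicate 1 (0.0572), and that of Kdelr1 without oxPAPC replicate 1, 2 or 4 or control replicate 2 or 4 (up to 0.0582).

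A list of the PERK branch, which also holds the translation factor gene Eif2s1 and the other kinases of that factor, had 18 tested genes. Of these 6 fell (33.3%) and 4 rose (22.2%), against 6.52% and 6.75% of all tested genes, with a median log2 fold change of -0.07. Ddit3, which encodes the stress factor CHOP, had 5.37 to 7.25 CPM in oxPAPC libraries and 16.6 to 28.2 CPM in control libraries, and its log2 fold change was -1.73 ± 0.20 (SE, adjusted p = 0.000109 by edgeR). The other 5 that fell were Nupr1, Chac1, Trib3, Bbc3 and Asns. Among those that rose, Atf3 had 11.8 to 17.2 CPM in oxPAPC and 3.36 to 4.72 CPM in control libraries, with a log2 fold change of 1.87 ± 0.19 (SE, adjusted p = 4.25e-05 by edgeR). Eif2ak2 encodes PKR, an interferon-inducible kinase of the same translation factor, and had a log2 fold change of 1.35 (edgeR adjusted p = 0.000272). The others that rose were Ero1l and Sesn2. Atf4, a transcription factor downstream of PERK and the other kinases, had 122 to 149 CPM in oxPAPC and 120 to 145 CPM in control libraries (log2 fold change -0.03, edgeR adjusted p = 0.925). Of 17 partners of ATF6 and XBP1 1 rose, Nfyc, a subunit of the factor NF-Y that binds CCAAT. It had a log2 fold change of 0.50 (edgeR adjusted p = 0.0313), lost with library size scaling (0.0635) and in 6 of the 8 fits that left out a library, those without oxPAPC replicate 1, 3 or 4 or control replicate 1, 2 or 4 (up to 0.102). Creb3l1 and Creb3 had -0.81 and 0.39 (edgeR adjusted p of 0.0839 and 0.160), and Creb3l1 passed without oxPAPC replicate 3 or control replicate 3 and with the GC and length offset (0.0264).

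**Figure D5:**
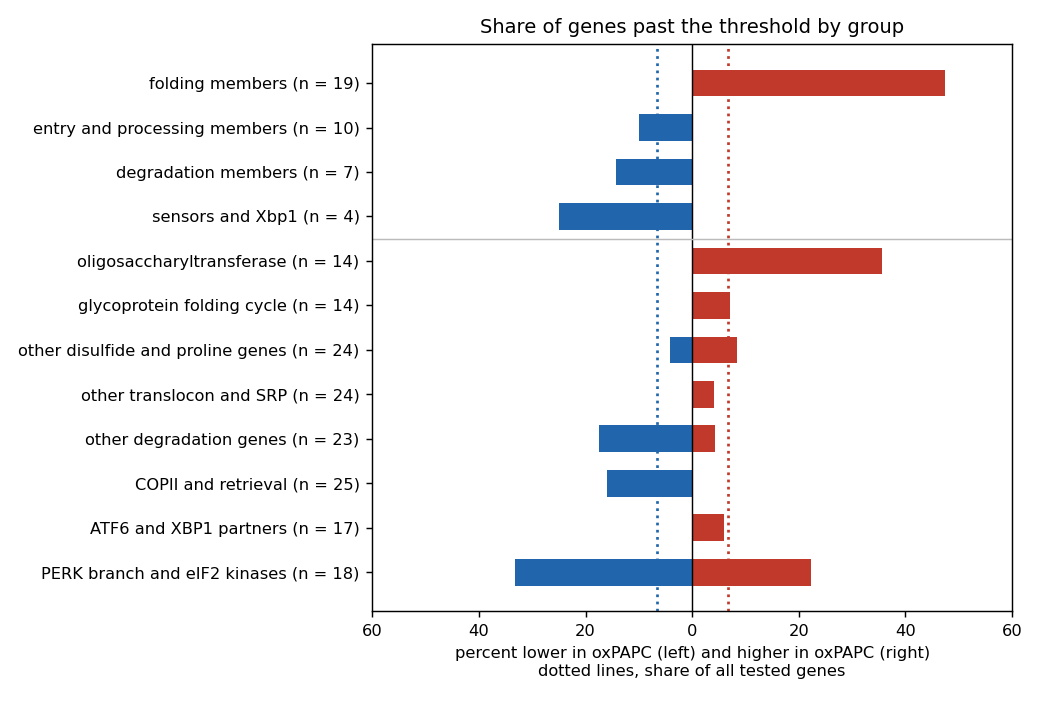
Percent of tested genes past the threshold that were lower (left of 0) and higher (right of 0) in oxPAPC libraries, for 4 role groups of the 40 genes above the grey line and 8 other lists below it; dotted lines mark 6.52% lower and 6.75% higher among all tested genes. The folding genes (9 of 19) and the oligosaccharyltransferase list (5 of 14) reach farthest to the right, and the list of the PERK branch and kinases of eIF2 (6 of 18) reaches farthest to the left.

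Marker genes of further immune cell types are given beside these values. Of 9 tested B cell markers 5 rose (55.6%, against 6.75% of all tested genes). None fell by edgeR, DESeq2 or limma-voom, and 1 was lower at an unadjusted p under 0.05. The summed level of the B cell list was 25.0 to 32.9 CPM in oxPAPC libraries and 16.0 to 21.4 CPM in control libraries. Of 8 tested genes of the plasma cell list, which shares Xbp1 with the 40 genes, 2 rose (Igkc and Ighg1). The summed level of that list, most of it from Xbp1 and Ighm, was 246 to 335 CPM in oxPAPC libraries and 215 to 267 CPM in control libraries. By DESeq2 3 genes of that list were higher and 1 was lower. Sdc1, a defining plasma cell marker, had 0.609 to 1.34 CPM in oxPAPC and 1.51 to 2.86 CPM in control libraries. It did not pass (edgeR adjusted p = 0.0531). Prdm1 of the same list went the other way, with 1.59 to 2.29 CPM in oxPAPC and 0.736 to 1.19 CPM in control libraries. It did not pass either (edgeR adjusted p = 0.0594). Jchain, Mzb1, Tnfrsf17, Iglc1 and Iglc2 are not listed in the count table under these names, so they were not analysed here. The macrophage list summed to 9.09 to 11.3 CPM in oxPAPC and 3.78 to 4.79 CPM in control libraries with 1 of 4 tested genes higher (Mpeg1), and the dendritic cell list to 12.5 to 15.2 and 6.19 to 10.8 CPM with 1 of 3 higher (Flt3). Mpeg1 had the largest gap of the macrophage list, with means of 4.02 CPM in oxPAPC and 0.203 CPM in control libraries. Most of the dendritic sum came from Zbtb46 (means of 11.5 and 8.69 CPM), which did not pass (edgeR adjusted p = 0.182). The macrophage genes Itgam, Cd14, C1qa, C1qb and Fcgr1 and the dendritic genes Clec9a, Siglech and Cd209a are not listed in the count table. Itgax, of the dendritic list, was at 0 in 1 control library. For natural killer cells 1 of 3 (Klrk1) and for CD8 T cells 1 of 2 (Cd8a) was higher. The count table does not list Ncr1, Klrb1c and Klra8 of the natural killer list either. The part of these cells in the results was not tested. Of 8 general T cell markers 1 fell (Cd28) and none rose by edgeR, DESeq2 or limma-voom or at an unadjusted p under 0.05.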

How the data were processed

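RNA-seq counts of 8 libraries, 4 of oxPAPC and 4 of control Tregs, were analysed. Per the labels' protocols, libraries were built from poly(A)-selected RNA. Tools named in the submitters' processing notes are DESeq2 1.30.1, featureCounts 2.0.2 and STAR 2.7.8a, with the build GRCm38.p6. The authors deposited whole-number counts per gene, not normalized, with their own comparison, per the file headers. That comparison gives log2 fold changes, a linear ratio (fold), a test score (the Wald statistic), p-values and a signal per gene (mean counts after size factors), by the authors. Of these the log2 values and adjusted p-values are quoted. The table lists genes that reach 5 counts in 2 or more libraries, and lower genes were not analysed here. Coordinates of 99.1% of its genes were identical to GENCODE M21.

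Counts were scaled by TMM, filtered with filterByExpr and tested by the quasi-likelihood method of edgeR 4.0.16 in R 4.3.3, with Benjamini-Hochberg adjustment over 16434 genes and a threshold of 0.05. Each standard error was obtained from the fold change (log2) and its F statistic. CPM were computed from the deposited counts, and CPM per kilobase used the union of GENCODE M21 exons. The common biological coefficient of variation was 0.207. The script was tested on simulated data. The depth was 14017583 to 21619731 counts a library. The 40 genes, their roles and the other lists were chosen with earlier results of these data known. Values in every library are given for each of the 40 genes past the threshold and for the sensors, and the 3 genes with the smallest adjusted p are named from each of 8 lists. Other genes named were chosen after their values were seen.

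Alternatives were RLE scaling, scaling by library size, DESeq2 1.42.0, limma-voom (limma 3.58.1), no filter on low counts or one at an average of 5 CPM, the replicate number as a block, removal of structural RNA and leaving out each library. The structural RNA removed included Gm26917. A loess offset (span 0.5) on GC content and length, over 16410 genes, was added after the data were seen.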

Additional observations from a re-analysis of the deposited data

Results flagged for a closer look

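For 64 genes, 128 sets of 4 replicate values were searched for 1 value that stands apart. Chance gives about 6.4 such values, and 6 were found. Among the 40 genes, Manf had 58.7 CPM in control replicate 1, against 48.8 to 50.4 CPM in the other control libraries. P4hb had 181 CPM in oxPAPC replicate 2, against 224 to 225 CPM in the others. Herpud1 had 44.0 CPM in control replicate 1, against 50.9 to 51.6 CPM. Of the other named genes, Tmx1 had 28.6 CPM in oxPAPC replicate 2, against 38.6 to 40.3 CPM, Ero1lb had 12.1 CPM in control replicate 1, against 14.6 to 15.1 CPM, and Eif2ak2 had 20.6 CPM in control replicate 3, against 13.7 to 14.6 CPM.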

How the results depend on the processing

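Of the 12 called genes, 4 kept their direction and their side of the threshold under all 17 alternatives, and no called gene changed sign. Leaving out one library called 5 to 10 of the 40 genes, 4 to 10 higher and 0 to 2 lower, with a median log2 fold change of 0.195 to 0.289. The fewest higher genes were called without control replicate 1 (4) and without oxPAPC replicate 4 (5). Over all genes these fits called 1390 to 2134 genes, 710 to 1057 higher and 680 to 1144 lower, and of the other lists 19 to 27, 10 to 15 higher and 9 to 15 lower. They have fewer samples. Library size scaling called 0 of the 40 genes lower and 458 lower genes in all, and it gave a median of 0.356. Of the other lists it called 18 genes, 4 of them lower. The GC and length offset, chosen after seeing the data, called 3340 genes, 1776 higher. For each of these, the cause was not tested.

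The replicate block called 6 of the 40 genes, 5 higher and 1 lower, 1453 genes in all with 708 lower, and 19 of the other lists with 9 lower. Adjusted p with the block was above the threshold for Pdia6 (0.0513), Creld2 (0.0655), Ssr3 (0.0707), Eif2ak3 (0.0779), Pdia3 (0.0793) and Fkbp2 (0.0888), and for Nfyc (0.0550), Kdelr1 (0.0581) and Ero1lb (0.0724) of the other lists. For libraries that share a number, the deviations from the group mean had correlations of 0.32, -0.053, -0.37 and -0.035. Only 2 of the 8 libraries had their best match in the one of the same number, and the numbers were not read as pairs.

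Among genes that did not pass, 10 changed sign in some setting. With library size scaling the log2 fold change turned to 0.085 for Canx, 0.013 for Dnajb9, 0.129 for Dnajc3, 0.095 for Sel1l, 0.109 for Ssr1, 0.100 for Derl1, 0.130 for Txndc5 and 0.102 for Mesd. With RLE scaling and with DESeq2 it was 0.001 for Dnajc3 and Ssr1, and 0.009 and 0.010 for Txndc5. With the offset it was 0.032 for Ssr1 and 0.006 for Txndc5. With one library left out it ranged from -0.193 to 0.075 for Canx, -0.296 to 0.078 for Dnajb9, -0.081 to 0.072 for Dnajc3, -0.098 to 0.012 for Sel1l, -0.011 to 0.207 for Sec61a1, -0.103 to 0.065 for Ssr1, -0.105 to 0.031 for Derl1, -0.148 to 0.077 for Txndc5, -0.121 to 0.174 for Sec11c and -0.078 to 0.041 for Mesd.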
